A study of Oryza sativa with 6 samples.

Results

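The loci described here are the genes of rice chromosome 10 whose identifiers run from LOC_Os10g16000 to LOC_Os10g23000, listed in the RNA-seq table of a study of OsChz1. They were found by identifier alone, and 208 of the 1675 loci listed for chromosome 10 fell in this interval, out of 30020 in the whole table. The limits of the interval had been chosen on differences between the genotypes in the same table, so its position is no finding, and no test was made of any property of its members. The libraries came from oschz1 and from wild-type (WT) seedlings of the cultivar Nipponbare, with 3 samples of each genotype. In oschz1, the gene of the histone chaperone OsChz1 was mutated with CRISPR/Cas9; the study describes a single-nucleotide deletion that ends translation early, in plants freed of the transgene, and the RNA libraries rest on this allele alone. Seedlings of both genotypes were 30 days old, after 10 days on diluted medium and 20 days on full-strength medium, in days of 14 h light (30 °C) and 10 h dark (28 °C). The study names them biological replicates, but no label ties a sample to its own culture.

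A histone chaperone escorts histones on their way into and out of nucleosomes. OsChz1 belongs to the CHZ-domain family and binds histone dimers that hold either canonical H2A or the variant H2A.Z, a histone found around the starts of many genes. The RNA-seq libraries were made to see how its loss affects transcription across the genome. Locus identifiers of this annotation name the chromosome and then number the genes along it from the end of the short arm, so that neighbouring numbers mean neighbouring genes, although a number is not a coordinate. Chromosome 10 of rice is known for a short arm rich in heterochromatin, the condensed and mostly silent form of chromatin, and for a long insertion of plastid DNA. The table pairs no identifier with a gene name or a function, and 0 of the 208 members could be matched in the reference gene table, so the members are given by identifier. Which of them are transposon-related or lie in the plastid insertion was not tested.

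The value available for each locus was the authors' mean normalized count, which is the number of reads assigned to the gene, divided by the size factor of the library and averaged over all 6 libraries of both genotypes. It carries no replicate error, and it is not divided by gene length. A longer transcript gives more reads, and the values below therefore compare reads collected per locus and not transcript levels. Differences between oschz1 and WT are held in the table only as the authors' own comparison, which was not used here. The size factors of the 6 libraries, recovered from the smallest means, ranged from 0.596 to 1.59, and the mean normalized counts of all loci summed to 23667139. No column names a library, so none of these size factors could be given to a genotype.

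Reads were unevenly spread over the interval. Of its 208 loci, 98 (47.1%) had a mean normalized count under 10, against 395 of 1467 (26.9%) on the rest of chromosome 10. The median was 13.4 inside the interval and 117 on the rest of the chromosome, and the lower quartiles were 1.50 and 7.77. At the upper end the 2 sets came closer, with 90th percentiles of 1220 inside and 1527 outside. In classes of mean normalized count, 42 members lay under 1, 56 from 1 to 10, 35 from 10 to 100, 51 from 100 to 1000 and 24 at 1000 or more. The share of loci under 1 was 20.2% inside and 10.0% outside, and the share at 1000 or more was 11.5% inside and 15.7% outside. The interval differed from the rest of the chromosome mainly in its weakly covered loci. Genes are not replicates of a condition, and these shares are descriptions of this table.

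**Figure D1:**
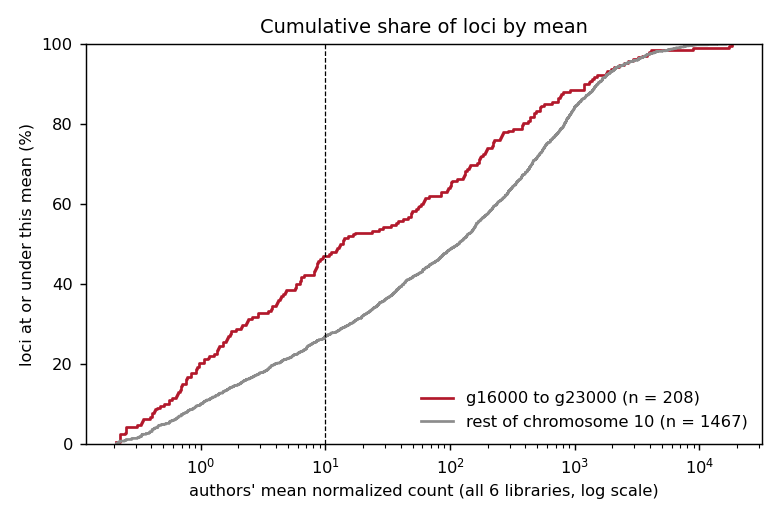
Cumulative share of loci (y axis, %) at or under a given authors' mean normalized count over all 6 libraries (x axis, log scale), for the 208 loci from g16000 to g23000 and the 1467 other loci of chromosome 10. At a mean of 10, marked by the dashed line, the curves stand at 47.1% inside the interval and 26.9% outside, and they meet above 1000.

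Stretches of chromosome 11 that were also set by locus number, and were not matched to the interval in any property, gave other values. From g09100 to g12500 of that chromosome, 44 of 163 loci (27.0%) had means under 10 with a median of 72.7, and from g34500 to g37500 it was 44 of 141 (31.2%) with a median of 44.7. Over the whole table, 25.0% of loci had means under 10 and the median was 155. The 208 members were listed at 29.7 loci per 1000 numbers, against 41.9 on the rest of chromosome 10. Listing also varied outside the interval. From 14000 to 14999 and from 15000 to 15999, just below it, 10 and 6 loci were listed, and from 35000 to 35999 it was 82. Sparse listing was thus not particular to the interval. Numbers without a row in the table were not analysed here. The widest step between listed neighbours inside the interval was 478 numbers, between LOC_Os10g19342 and LOC_Os10g19820, against a median step of 20.

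The summed mean of the interval was held mostly by a few of its members. The highest was LOC_Os10g18340, with an authors' mean normalized count of 18127. LOC_Os10g21910 followed with a mean of 17161. These were the 2 highest values of all chromosome 10, whose highest locus outside the interval had 16523. LOC_Os10g17260 came next with 8806, rank 8 on the chromosome. These 3 loci alone held 40.2% of the summed mean of the interval. The same fraction of the rest of the chromosome, its highest 21 loci, held 20.2% of its sum.

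Lower in the order, LOC_Os10g20630 had a mean normalized count of 4095 and LOC_Os10g17280, the listed neighbour of LOC_Os10g17260, had 3938. LOC_Os10g22950 reached 3759, LOC_Os10g21810 3436 and LOC_Os10g16974 3225 on the same scale. The last of the highest 10 were LOC_Os10g22560 with 2940 and LOC_Os10g19860 with 2650. Together the 10 loci held 62.1% of the summed mean, and the 98 loci under 10 held 0.232%. With 12.4% of the listed loci of chromosome 10, the interval held 11.4% of its summed mean. Its share of the summed mean was thus near its share of loci.

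At the lower edge of the interval, the first member was LOC_Os10g16440 with a mean normalized count of 422, and the nearest listed locus below it was LOC_Os10g15390 with 548. At the upper edge, the last member was LOC_Os10g22990 with 11.1, and the first locus beyond was LOC_Os10g23050 with 5.12. In locus order, the values changed from neighbour to neighbour over several orders of magnitude. The first 2 members had 422 and 910, whereas the next, LOC_Os10g16650, had 0.636. From 16000 to 16999, 7 of 13 members lay under 10 and the median was 5.81, although LOC_Os10g16974 is among these loci. From 17000 to 17999, where LOC_Os10g17260 and LOC_Os10g17280 stand, 10 of 26 lay under 10 and the median was 37.6. From 18000 to 18999, 4 of 13 lay under 10 with a median of 68.0.

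From 19000 to 19999 the median was 2.56, with 17 of 27 members (63.0%) under 10, the lowest median of the 43 bins of 1000 numbers on chromosome 10. From 20000 to 20999 the median was 106, with 13 of 30 members under 10. From 21000 to 21999, the bin with most members, 34 of 58 (58.6%) lay under 10 and the median was 7.11, yet LOC_Os10g21910 and 4 more loci there reached 1000. The bin from 22000 to 22999 had a median of 141, with 13 of 41 members under 10, and held 9 of the 24 members with means of at least 1000. Thus 3 of the 7 bins of the interval had medians under 10, against 2 of the 36 bins outside. The bin from 24000 to 24999, beyond the upper edge, resembled the low bins of the interval, with a median of 2.56 and 20 of 28 loci (71.4%) under 10, and low coverage did not end at the limit of the interval.

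**Figure D2:**
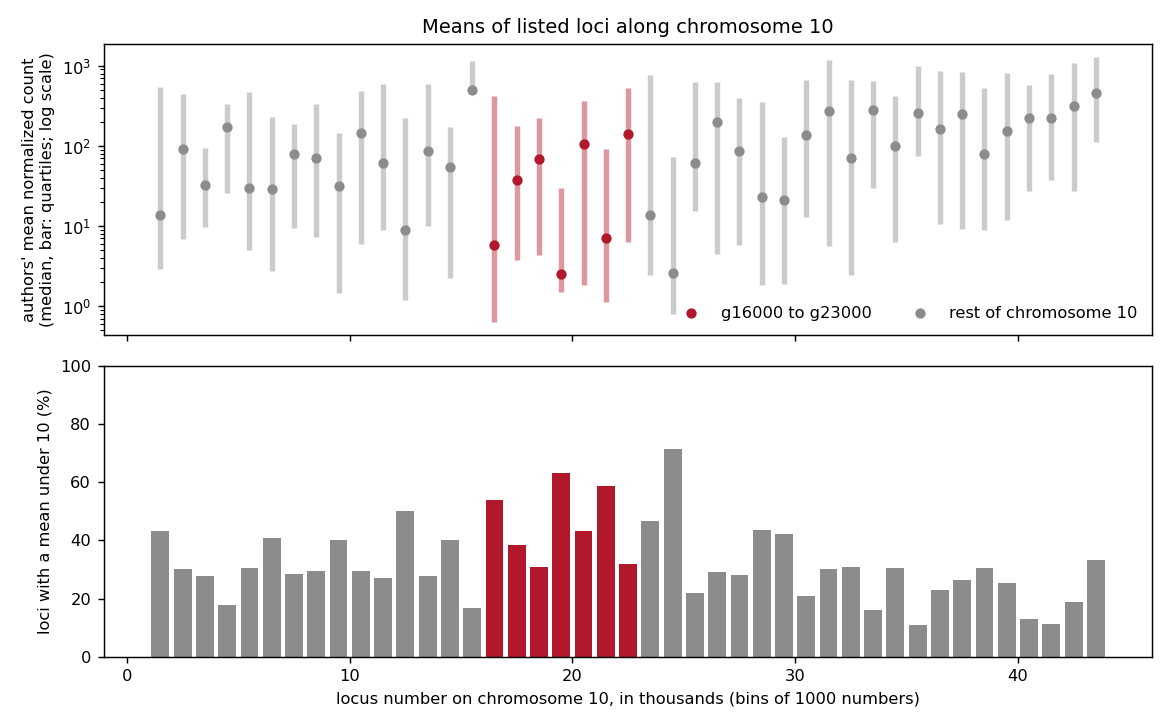
Loci of chromosome 10 in bins of 1000 locus numbers (x axis). The upper panel gives the median (point) and quartiles (bar) of the authors' mean normalized count on a log scale, and the lower panel the share of loci with a mean under 10 (%). Of the 7 red bins, those of the interval, the ones starting at 16000, 19000 and 21000 have medians of 5.81, 2.56 and 7.11, and the grey bin at 24000 has 2.56.

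Members with means under 10 and of at least 10 alternated along the interval in 99 runs. The longest runs under 10 held 6 listed neighbours each. One reached from LOC_Os10g21238 to LOC_Os10g21266, with mean normalized counts between 0.210 and 6.20, and the other from LOC_Os10g21322 to LOC_Os10g21352, with means between 0.503 and 9.51. The longest runs of at least 10 held 9 members each. They reached from LOC_Os10g21810 to LOC_Os10g22050, with a median of 540, and from LOC_Os10g22460 to LOC_Os10g22630, with means from 33.8 to 2940 and a median of 774. Outside the interval, the longest run under 10 held 14 loci and the longest of at least 10 held 39. The outside set is larger, with 1467 loci against 208, and 73.1% of it lay at 10 or more, against 52.9% inside. Longest runs depend on both, so these lengths are not a like comparison. The rank correlation between the means of listed neighbours was 0.16 over the 207 pairs of the interval and 0.17 over the 1674 pairs of the whole chromosome, a description in which neighbouring pairs share loci.

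**Figure D3:**
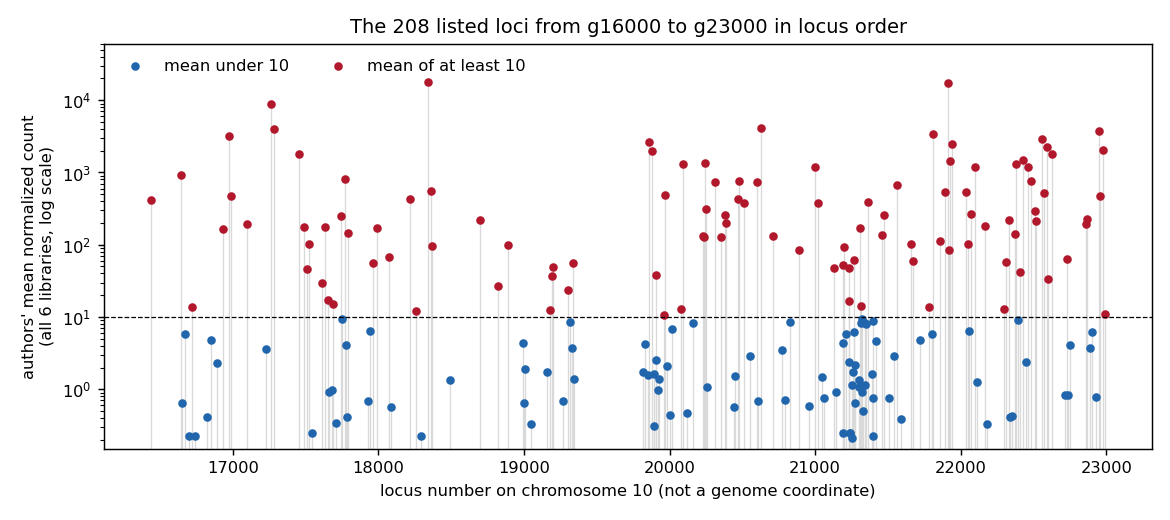
The 208 members at their locus numbers (x axis, not a genome coordinate), with the authors' mean normalized count over all 6 libraries on a log scale (y axis). Blue points are the 98 members under 10 and red points the 110 of at least 10; the dense column of points between 21190 and 21418 has 34 members, 26 of them under 10.

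The longest run of members with numbers less than 40 apart was a block that was chosen after its values were seen. Between LOC_Os10g21190 and LOC_Os10g21418, 34 loci are listed, and 26 of them have numbers that are not multiples of 10, as have 22 of the other 174 members. In this block, 26 of 34 loci (76.5%) had mean normalized counts under 10 and the median was 3.38, against 72 of the other 174 members (41.4%) and a median of 37.5. Its 8 better covered loci lay between 14.2, for LOC_Os10g21314, and 385, for LOC_Os10g21360. LOC_Os10g21310 had 170, LOC_Os10g21196 had 94.1, LOC_Os10g21268 had 61.6 and LOC_Os10g21192 had 53.0. LOC_Os10g21230 had 48.3 and LOC_Os10g21236 had 16.8, and none of the block reached 1000. The authors kept only reads with a unique alignment, so any locus with a near-identical copy elsewhere is measured by the reads that tell the copies apart. The mean of such a locus is uncertain for that reason. Whether loci of the block have such copies was not tested.

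The reads behind the low means could be counted. Each of the 98 members with a mean under 10 was a sum of whole reads of the 6 libraries, by 1 combination only, within 2e-09. They had 2 to 63 reads in all libraries together, with a median of 9. No low locus of the table had fewer than 2 reads in all, but the smallest mean was taken as 2 reads of the deepest library to begin with. Reads were present in all 6 libraries for 23 of these members (23.5%), in 5 for 14, in 4 for 15, in 3 for 15, in 2 for 18 and in 1 for 13 (13.3%). Among the 395 low loci on the rest of chromosome 10, reads were present in all 6 libraries for 114 (28.9%) and in 1 for 38 (9.62%). A library with 0 reads of a locus allows up to 3 reads of it at this depth.

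The 13 members with reads in a single library differed in how many they had. LOC_Os10g21190 had 39 reads, all of them in the library with a size factor of 1.49. The other 5 libraries had 0 reads of it, and its mean normalized count of 4.36 thus rested on 1 library alone. LOC_Os10g18490 had 6 reads, all in the library with a size factor of 0.738. LOC_Os10g17785 had 4 reads in the library with a size factor of 1.59. LOC_Os10g19270 and LOC_Os10g22180 had 3 reads each, in the libraries with size factors of 0.738 and 1.49. The remaining 8 had 2 reads each. By library, 6 of the 13 had their reads in the one with a size factor of 1.49, including LOC_Os10g21190, and none in the one with 1.19. The same split is not given for loci outside the interval, so it is not read as particular to the members. Reads copied by PCR are not independent molecules, and the limit for 0 reads covers counting error only.

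**Figure D4:**
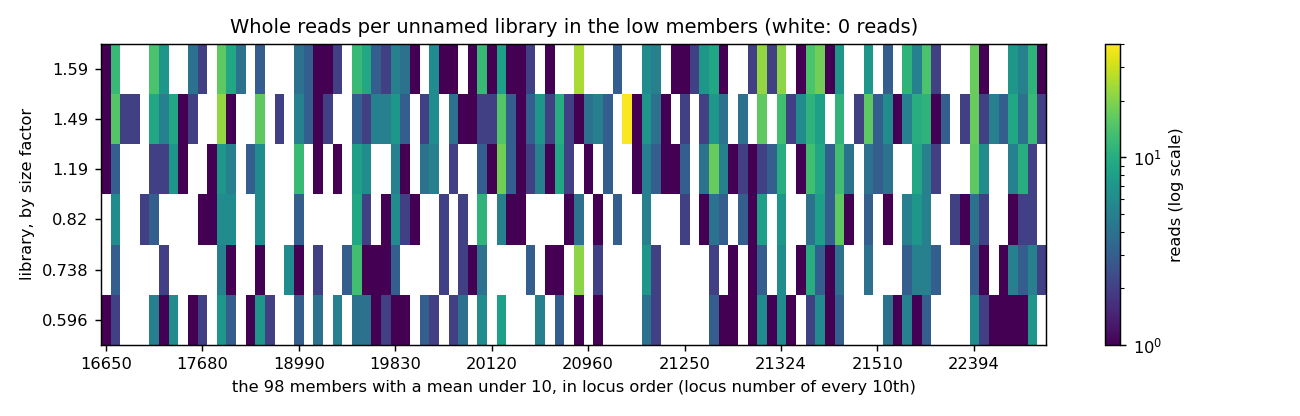
Whole reads (colour, log scale; white is 0) of the 98 members with a mean under 10, in locus order (x axis), in each of the 6 libraries (y axis, named by size factor because the table does not name them). The 3 deeper libraries had reads of 65.3% to 79.6% of these members and the 3 shallower ones of 48.0% to 58.2%, and the single yellow cell is LOC_Os10g21190 with 39 reads in the library with a size factor of 1.49.

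The deeper libraries held more of these reads. In order of falling size factor, the low members had 386 reads in the library with 1.59, 449 with 1.49, 300 with 1.19, 187 with 0.820, 161 with 0.738 and 169 with 0.596. Divided by the size factors, each library held between 14.3% and 19.7% of the total, the largest share being that of the library with 1.49. Without LOC_Os10g21190 the largest share was that of the library with 0.596, at 18.9%, and the library with 1.49 held 18.3%. For the low loci of the rest of chromosome 10, these shares ran from 15.5% to 17.9%. Of the low members, 79.6% had a read in the library with 1.49 and 48.0% in the library with 0.738.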

How the data were processed

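Stranded RNA-seq libraries of poly(A) RNA represent 3 oschz1 and 3 WT seedling samples. The authors trimmed reads with cutadapt, aligned them with HISAT2 to the Nipponbare genome of the MSU annotation, kept unique alignments with SAMtools, counted them per gene with featureCounts and normalized them with DESeq2. The strand setting of the counting step is not stated in the methods, and reads of genes that overlap on opposite strands may not be told apart. The deposited mean normalized count is a signal that the authors averaged over the 6 libraries, each first divided by its size factor. The other 5 columns hold the authors' own comparison of the genotypes (log2 fold change, its SE, the statistic, p and adjusted p). They were not used, and no test between genotypes was made. There were 0 columns of single libraries, so the count model that had been planned for such columns was not run.

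Members were taken by identifier from the deposited table, with no further filter on low values. No low locus listed there had fewer than 2 reads under the assumption given below, and the shares and the listing density cover listed loci only. Members, limits and lists were chosen with earlier results of these data known. Low means a mean under 10, a value of no special standing. The worth of 1 read in each library was read in turn from the smallest means. The smallest mean was assumed to be 2 reads of the deepest library. The smallest mean not yet explained was then assumed to be 1 read of a further library with 1 of the deepest. These values were refined by least squares over the 186 distinct means under 0.7. Of the 7516 means under 10 in the table, 7516 (100%) were then sums of whole reads within 2e-09, 7513 of them by 1 combination only. The steps were tested on simulated data with means under 5 only, so means from 5 to 10 were not covered by that test. The loci named are the 10 with the highest means, the edges of the interval and of its longest runs, and the 5 with most reads among those with reads in 1 library; others were named after their values were seen. Python 3.11.15 with numpy 2.4.6, pandas 2.3.3 and scipy 1.17.1 was used.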

Additional observations from a re-analysis of the deposited data

How the results depend on the processing

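No paired analysis was possible because the table has no columns of single libraries, and since means of 10 or more are not resolved into reads, no replicate could be left out of the median or the shares. Among the low members, leaving out each of the 6 unnamed libraries in turn, an alternative chosen after seeing the data, left 92 to 98 of the 98 members with reads. Without the library with a size factor of 1.49, 6 members had no read left, among them LOC_Os10g21190, whose mean normalized count of 4.36 then became 0. The median mean normalized count of 13.4 was 12.1 in the interval narrowed by 500 numbers at each end, 13.9 in the widened one, 13.0 without the highest locus and 59.3 with means of at least 1 only (162 on the rest of the chromosome). These intervals share most of their loci, so that values close to each other say little. The share of low members was 38.5% with a limit of 5 (21.3% on the rest), 52.9% with a limit of 20 (32.0%), 33.7% with means of at least 1 only (18.8%), 49.2% in the narrowed interval (26.9%) and 46.6% in the widened one (26.9%), and was higher inside than outside in each. The highest locus alone held 16.5% of the summed mean and the highest 10 held 62.1%, and the share of the highest 3 was 46.7% in the narrowed interval and 37.2% in the widened one. With a tolerance 10 times larger, 88 of the 98 low members were a sum of whole reads by 1 combination only, the other 10 having more than 1. With a tolerance 10 times smaller it was 47, since that tolerance is finer than the rounding of the table. Of the members with means under 5, 80 of 80 were resolved. With 1 pooled mean per locus, differences between oschz1 and WT were not analysed here.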

Other observations

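The 6 libraries are not named in the table and were put in no group, and the values in this section are those of single libraries known only by their size factors. Of the 15 low members with reads in 3 libraries only, 2 had 10 or more reads, and both had them in the same libraries. LOC_Os10g17230 had 9, 7 and 6 reads in the libraries with size factors of 1.49, 1.19 and 0.596, and 0 reads in those with 1.59, 0.820 and 0.738. LOC_Os10g20550 had 7, 5 and 5 reads in the first 3 of these libraries and 0 in the other 3. LOC_Os10g20770 came close to the same pattern, with 10, 9 and 3 reads in the libraries with 1.49, 1.19 and 0.596, 1 read in that with 0.738 and 0 in those with 1.59 and 0.820. LOC_Os10g20830 had the opposite one, with 25, 4 and 21 reads in the libraries with 1.59, 0.820 and 0.738, against 1, 0 and 1 in those with 1.49, 1.19 and 0.596. These loci were chosen after their values were seen, and the deepest library, with 1.59, had 0 reads of the first 3. The limits of the interval had also been chosen on differences between the genotypes in the same data. Such a choice can favour members with reads in 3 libraries and few or none in the other 3, so these patterns are no finding about the interval.

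Over the whole table, 191 low loci had at least 10 reads and reads in 3 libraries only. In 70 of them (36.6%) the libraries were those with size factors of 1.49, 1.19 and 0.596, the most frequent set. The next set, the libraries with 1.59, 1.49 and 1.19, which are the deepest, was found for 26 (13.6%), and the set of 1.59, 0.820 and 0.738 for 9 (4.71%). On the rest of chromosome 10, 2 of 9 such loci had the first set. Which genotype these libraries belong to was not inferred from the values.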
